A study of Arabidopsis thaliana with 4 samples.

Results

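The 34 Arabidopsis thaliana genes described here had negative log2 ratios on every array of a dye-swap comparison of the hy5 mutant with wild type, once replicates 1 and 2, which carried mutant RNA in Cy3, had been multiplied by -1. They were chosen from genes whose probes are paired with 1 gene in the platform annotation and that had values on all 4 arrays (1227 genes). A gene was kept when each of its 4 turned ratios was at or below -0.2. Of the 40 genes that met this limit (3.26%), 6 were set aside by name, namely 3 peroxidase genes, the glucosyltransferase gene UGT72E1, the AP2/ERF factor gene tny and the antenna gene LHCB4.2, which left 34 (2.77%). The share that met the limit among all 16577 features with 4 values, named genes and unnamed probes together, was 3.47%. The 3.26% for named genes thus lay near this background.

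Plants of the hy5 mutant and of wild type had been grown for 4 days under white light that was never switched off. Neither the tissue taken, the hy5 allele nor the accession of the plants is given in the sources used here. Total RNA of both genotypes was hybridised together on each of 4 two-colour arrays of long oligonucleotide probes, and the dyes were swapped: mutant RNA carried Cy3 on replicates 1 and 2, and Cy5 on replicates 3 and 4. The design text calls the 4 arrays biological replicates. A two-colour ratio gives no level of its own, so the tissue could not be checked against marker levels, and fewer cells of a type cannot be told apart from less RNA per cell.

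HY5 is a bZIP transcription factor that accumulates in light and promotes the light-grown form of the seedling. It binds gene promoters at motifs with an ACGT core, among them the G-box, and it is degraded in darkness through the COP1 ubiquitin ligase. Mutants that lack it have long hypocotyls in light, and HY5 is also known for roles in pigment synthesis, hormone signalling and nutrient uptake.

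The direction of the ratios is not settled. If the deposited columns hold Cy5 over Cy3 and had not been turned before deposit, a negative turned ratio means less signal in the mutant than in wild type. If they hold Cy3 over Cy5, it means more signal in the mutant. If the authors had already turned the swapped arrays, a ratio that changes sign with the dyes follows the dyes and not the genotype. These cases cannot be told apart from the table, so it is left unsaid for every gene below which genotype had more of its transcript. The ratios of all 4 arrays, the only contrast of the study, chose the genes. They are therefore given as a description with no test of any of the 34 genes.

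Of the 27648 probes, 25007, 26739, 25057 and 18004 had a ratio on replicates 1 to 4, and the SDs over all of these were 0.865, 1.11, 0.930 and 0.917. In limma on the turned ratios of 24153 features (two-sided, against 0), 0 features (0%) passed a Benjamini-Hochberg adjusted p of 0.05. At an unadjusted p under 0.05 there were 2122 (8.79%), of which 1043 (4.32%) were negative. The ordinary statistic without variance moderation also gave 0 after adjustment and 2191 before it.

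**Figure D1:**
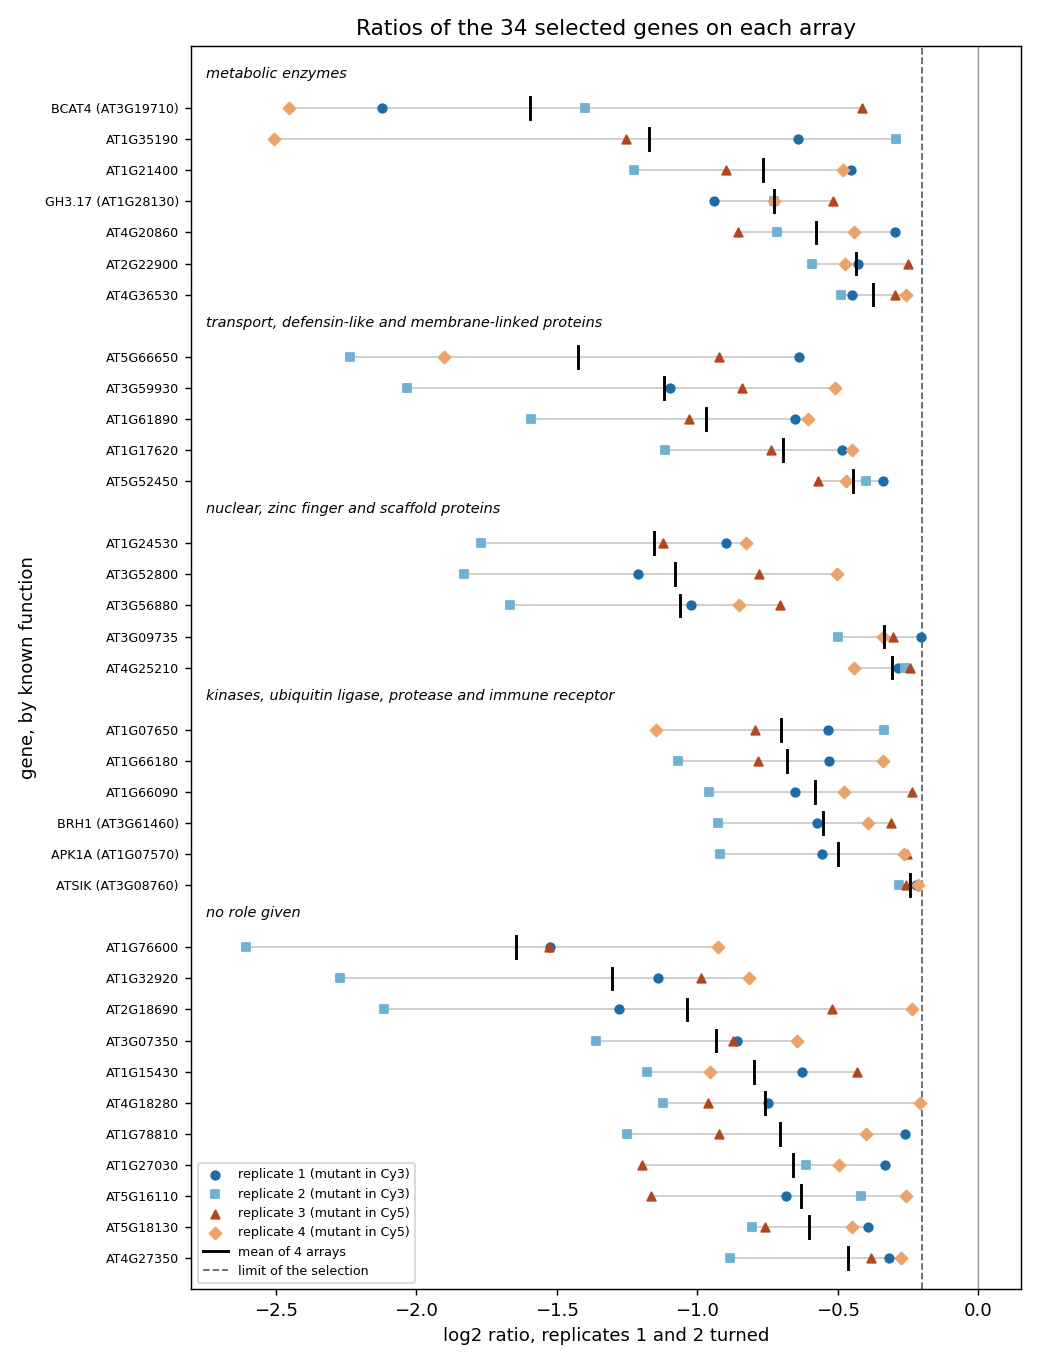
Turned log2 ratio (x axis) of each of the 34 genes (rows, grouped by known function) on the 4 arrays, with the mean as a black bar and the limit of -0.2 as a dashed line. Means run from -1.65 for AT1G76600 to -0.24 for ATSIK, and the square of replicate 2 is the leftmost point of 25 genes.

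The 34 genes had mean turned ratios between -1.65 and -0.24, with a median of -0.71. Over all 1227 named genes with 4 values the median of the means was -0.017. A mean at or below -1 was found for 10 genes, a mean above -1 and at or below -0.5 for 16, and a mean above -0.5 for 8. Without replicate 2 these numbers were 4, 20 and 10, and the 4 genes still at or below -1 were BCAT4, AT1G35190, AT1G76600 and AT5G66650. With any other array left out, 10 or 11 genes were at or below -1. The spread between arrays (SD) ran from 0.032 to 0.97 with a median of 0.34, against a median of 0.38 over all named genes. For 10 genes every array was at or below -0.5, for 3 every array was at or below -0.8, and for 0 every array was at or below -1. The 3 genes at or below -0.8 were AT1G76600, AT1G24530 and AT1G32920. Before genes were set aside by name, the limits of -0.5, -0.8 and -1 were met by 1.06%, 0.41% and 0.081% of named genes. Over all features the shares were 0.94%, 0.28% and 0.12%.

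All 34 genes rest on 1 probe each, so no second probe of the same gene bears on any of them. The reference gene table gives a symbol other than the locus tag for 5 of them (BCAT4, GH3.17, BRH1, APK1A and ATSIK) and the locus tag alone for 29. The keyword grouping planned for symbols and synonyms placed 2 of the 34, BCAT4 among 61 metabolic enzymes and BRH1 among 21 proteins of folding and turnover, and left 32 without a keyword, as it did 1096 of the 1227 genes. The functional groups below were therefore written from background knowledge after the genes had been seen, and the protein families given for bare locus tags come from that knowledge and not from the tables.

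Metabolic enzymes made up 7 of the 34 genes, with means from -1.60 to -0.37. BCAT4 (AT3G19710) encodes the methionine aminotransferase that opens the chain elongation of methionine-derived glucosinolates, sulfur-containing defence compounds of this plant family. It had turned ratios of -2.12, -1.40, -0.41 and -2.45 on replicates 1 to 4, a mean of -1.60 ± 0.90 (SD, n = 4) that corresponds to a 3.02-fold difference. Replicates 1, 2 and 4 were far below the limit, and replicate 3 was much closer to it.

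AT1G35190, a gene of the 2-oxoglutarate- and iron-dependent oxygenase family, had ratios of -0.64, -0.29, -1.25 and -2.51. Its mean was -1.17 ± 0.97 (SD, n = 4), the widest spread of the 34 genes, and -0.73 without replicate 4. The values were larger in size on both arrays with the mutant in Cy5 than on both with the mutant in Cy3, so dye orientation and ratio moved together in this gene. The mean of the ratios as deposited, where a sign that turns with the dyes cancels, was -0.71.

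AT1G21400 encodes an E1-alpha subunit of the branched-chain 2-oxoacid dehydrogenase complex, which commits the breakdown of leucine, isoleucine and valine. Its ratios were -0.45, -1.23, -0.90 and -0.48, with a mean of -0.77 ± 0.37 (SD, n = 4). GH3.17 (AT1G28130) encodes an amido synthetase that joins the auxin indole-3-acetic acid to glutamate, a step towards its inactivation. GH3.17 had ratios of -0.94, -0.73, -0.52 and -0.73, which lay close together around a mean of -0.73 ± 0.17 (SD, n = 4), a 1.66-fold difference.

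The remaining enzymes lay nearer the limit. AT4G20860, of the berberine bridge enzyme-like family of flavin oxidases, had a mean of -0.58 ± 0.25 (SD, n = 4). AT2G22900, a glycosyltransferase gene involved in the galactomannan of seed coat mucilage, had -0.44 ± 0.14 (SD, n = 4). AT4G36530, of the alpha/beta-hydrolase superfamily, had -0.37 ± 0.11 (SD, n = 4).

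Genes of transport, defensin-like and membrane-linked proteins numbered 5, with means from -1.42 to -0.45. AT5G66650, of the calcium uniporter family of organelle membranes, had ratios of -0.64, -2.24, -0.92 and -1.90 and a mean of -1.42 ± 0.77 (SD, n = 4), a 2.68-fold difference. One array of each dye orientation was near -2 and the other near or above -1, so both orientations gave nearly the same mean (-1.44 with the mutant in Cy3, -1.41 with it in Cy5). AT3G59930, a gene of the defensin-like family of small secreted proteins, had -1.10, -2.03, -0.84 and -0.51, with a mean of -1.12 ± 0.66 (SD, n = 4).

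Both genes of the MATE family of efflux carriers among the 34 were in this group. AT1G61890 had ratios of -0.65, -1.59, -1.03 and -0.61, with a mean of -0.97 ± 0.46 (SD, n = 4). AT5G52450 had a mean of -0.45 ± 0.10 (SD, n = 4), smaller in size and more even between arrays. AT1G17620, of the hydroxyproline-rich glycoprotein family related to late embryogenesis proteins, had -0.48, -1.11, -0.74 and -0.45, with a mean of -0.70 ± 0.31 (SD, n = 4).

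Nuclear, zinc finger and scaffold proteins were encoded by 5 genes, of which 3 had means at or below -1 over the 4 arrays and 0 did without replicate 2. AT1G24530, a WD40-repeat gene, had ratios of -0.90, -1.77, -1.12 and -0.83 and a mean of -1.15 ± 0.43 (SD, n = 4), a 2.23-fold difference. AT3G52800, a gene of the A20/AN1 zinc finger family of stress-associated proteins, had -1.21, -1.83, -0.78 and -0.50, with a mean of -1.08 ± 0.58 (SD, n = 4). AT3G56880 encodes a VQ-motif protein, a family whose members bind WRKY transcription factors, and had -1.02, -1.67, -0.71 and -0.85, with a mean of -1.06 ± 0.42 (SD, n = 4).

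In each of these 3 genes replicate 2 was the lowest array (without it the means were -0.95, -0.83 and -0.86, in the same order), and the average with the mutant in Cy3 was below that with it in Cy5. The other 2 genes of the group were close to the limit. AT3G09735, of the S1FA family of small DNA-binding proteins, had a mean of -0.34 ± 0.12 (SD, n = 4). AT4G25210, of the storekeeper and GeBP family of DNA-binding proteins, had -0.31 ± 0.093 (SD, n = 4).

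Kinases, a ubiquitin ligase, a protease and an immune receptor formed a group of 6 genes with smaller ratios, their means running from -0.70 to -0.24. AT1G07650, a leucine-rich repeat receptor kinase gene, had ratios of -0.54, -0.34, -0.79 and -1.15, with a mean of -0.70 ± 0.35 (SD, n = 4). As in AT1G35190, its values were larger in size with the mutant in Cy5. AT1G66180, of the aspartyl protease family, had -0.53, -1.07, -0.78 and -0.34, with a mean of -0.68 ± 0.32 (SD, n = 4).

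BRH1 (AT3G61460) encodes a RING-H2 protein whose transcript is known to respond to brassinosteroid hormones. It had ratios of -0.57, -0.93, -0.31 and -0.39 and a mean of -0.55 ± 0.27 (SD, n = 4). AT1G66090, which encodes an immune receptor of the TIR-NBS class, had -0.65, -0.96, -0.24 and -0.48, with a mean of -0.58 ± 0.30 (SD, n = 4). APK1A (AT1G07570), a receptor-like cytoplasmic kinase gene, had a mean of -0.50 ± 0.31 (SD, n = 4).

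No role is given here for 11 genes, which hold the lowest mean of the set. AT1G76600 had ratios of -1.52, -2.61, -1.53 and -0.93 and a mean of -1.65 ± 0.70 (SD, n = 4), a 3.13-fold difference. AT1G32920 had -1.14, -2.27, -0.99 and -0.82, with a mean of -1.30 ± 0.66 (SD, n = 4). AT1G32920 was absent from the reference gene table by its Entrez ID and was taken by its locus tag. Both genes had their lowest value on replicate 2 and their highest on replicate 4.

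AT2G18690 showed the strongest lean to 1 dye orientation among the genes lower with the mutant in Cy3. Its ratios were -1.28, -2.12, -0.52 and -0.24, with a mean of -1.04 ± 0.84 (SD, n = 4). The mean was -0.68 without replicate 2, and 0.66 as deposited. AT3G07350 was more even, at -0.86, -1.36, -0.87 and -0.65, with a mean of -0.93 ± 0.30 (SD, n = 4). AT1G15430 had -0.63, -1.18, -0.43 and -0.96, with a mean of -0.80 ± 0.33 (SD, n = 4).

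AT1G78810 had ratios of -0.26, -1.25, -0.92 and -0.40 and a mean of -0.71 ± 0.46 (SD, n = 4), so that each dye orientation held 1 large and 1 small value. The mean was -0.66 ± 0.38 for AT1G27030, -0.63 ± 0.40 for AT5G16110 and -0.60 ± 0.21 for AT5G18130 (SD, n = 4 each). AT4G27350 had -0.46 ± 0.28 (SD, n = 4).

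At the limit itself, the 3 genes just inside were AT3G09735, AT4G18280 and ATSIK. AT3G09735 had ratios of -0.20, -0.50, -0.30 and -0.34, its highest at -0.204. AT4G18280, to which no role is given, was clearly negative on 3 arrays (-0.75, -1.12 and -0.96) and at -0.21 on replicate 4, with a mean of -0.76 ± 0.40 (SD, n = 4). ATSIK (AT3G08760), a protein kinase gene, had -0.22, -0.28, -0.26 and -0.21, with the narrowest spread of the set and a mean of -0.24 ± 0.032 (SD, n = 4).

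Just outside the limit were AT3G01060, ATRER1A and SPL. AT3G01060 had -0.1997, -0.36, -0.2013 and -0.52, so that 1 array missed the limit in the fourth decimal place. ATRER1A (AT4G39220), whose protein belongs to a family that returns membrane proteins to the endoplasmic reticulum, had -0.19, -0.69, -0.84 and -0.20. SPL (AT4G27330), the SPOROCYTELESS regulator of sporogenesis, had -0.32, -0.19, -0.42 and -0.19. These values differ little from those of the genes just inside.

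**Figure D2:**
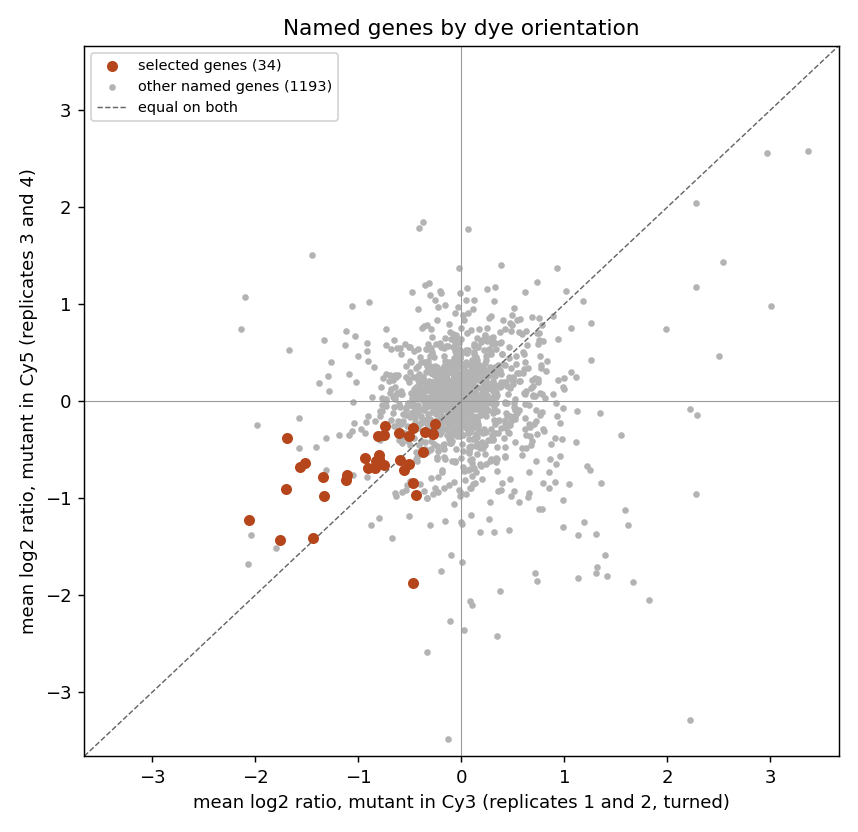
Mean log2 ratio with the mutant in Cy5 (replicates 3 and 4, y axis) against that with the mutant in Cy3 (replicates 1 and 2, turned, x axis) for the 34 genes (red) and the other 1193 named genes (grey). The 34 genes lie below 0 on both axes by their selection, 26 of them above the dashed line of equal values, where the ratio is larger in size with the mutant in Cy3.

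The 34 genes were not even between the dye orientations. The mean was lower with the mutant in Cy3 in 26 genes and lower with it in Cy5 in 8. The median over the genes was -0.80 where the mutant carried Cy3 and -0.65 where it carried Cy5. The means of the orientations lay within 1.5 times of each other in 19 of the 34. By array, the medians with the mutant in Cy3 were -0.60 (replicate 1) and -1.01 (replicate 2). With the mutant in Cy5 they were -0.77 (replicate 3) and -0.48 (replicate 4). Replicate 1 lay between replicates 3 and 4, so a lean with the dyes cannot be told apart from a trait of replicate 2. The 536 unnamed probes that met the same limit had medians of -0.67, -0.83, -0.61 and -0.57 on replicates 1 to 4. In these probes both arrays with the mutant in Cy3 were thus lower than both with it in Cy5. The lean was therefore not particular to the 34 genes. How many probes or features leaned to each orientation was not counted, and the lean was not tested.

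As deposited, with no array turned, the means of the same genes lay between -0.71 and 0.66, and for 24 they were under 0.2 in size. Their selection fixes opposite signs between the orientations, so the values cancel at least in part in these means. It does not fix their sizes, so the means as deposited need not be small.

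**Figure D3:**
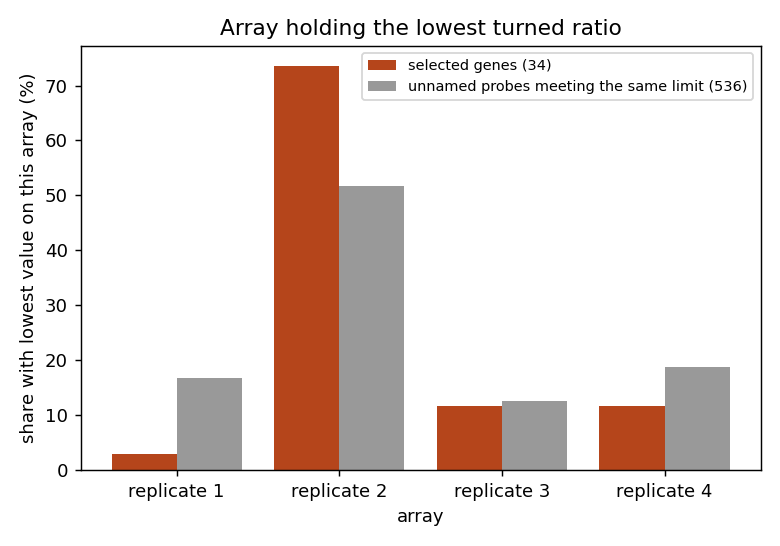
Share of the 34 genes (red) and of the 536 unnamed probes that met the same limit (grey) whose lowest turned ratio was on each array. Replicate 2 held the lowest value of 73.5% of the genes and 51.7% of the probes.

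Replicate 2 stood apart within the set. It held the lowest ratio of 25 of the 34 genes (73.5%), against 1 gene for replicate 1 and 4 genes each for replicates 3 and 4. The medians over the 34 genes were -0.60, -1.01, -0.77 and -0.48 on replicates 1 to 4. Over all probes replicate 2 had the widest ratios (SD 1.11), but over the named genes with 4 values replicate 4 did (0.782, against 0.740 on replicate 2). Without replicate 2 the mean was smaller in size in 26 of the 34 genes, and the median of the means was -0.66. With replicate 2 left out, all 34 genes still met the limit, as they must, and their number grew to 66 because only 3 values had to meet it. The highest of a gene's 4 values was most often on replicate 4, in 15 genes.

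The 536 unnamed probes that met the same limit (3.49% of 15350) had a similar median. Their median mean ratio was -0.73, against -0.71 for the genes, and their median SD between arrays was 0.36, against 0.34. A mean at or below -1 was found for 29.4% of the genes and 29.7% of the probes. That likeness rests on replicate 2, without which the shares were 11.8% of the genes and 22.8% of the probes, and the medians -0.66 and -0.67. Replicate 2 held the lowest value of 277 of the probes (51.7%), a smaller share than among the genes. The difference was not tested, because both sets were chosen by these ratios.

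**Figure D4:**
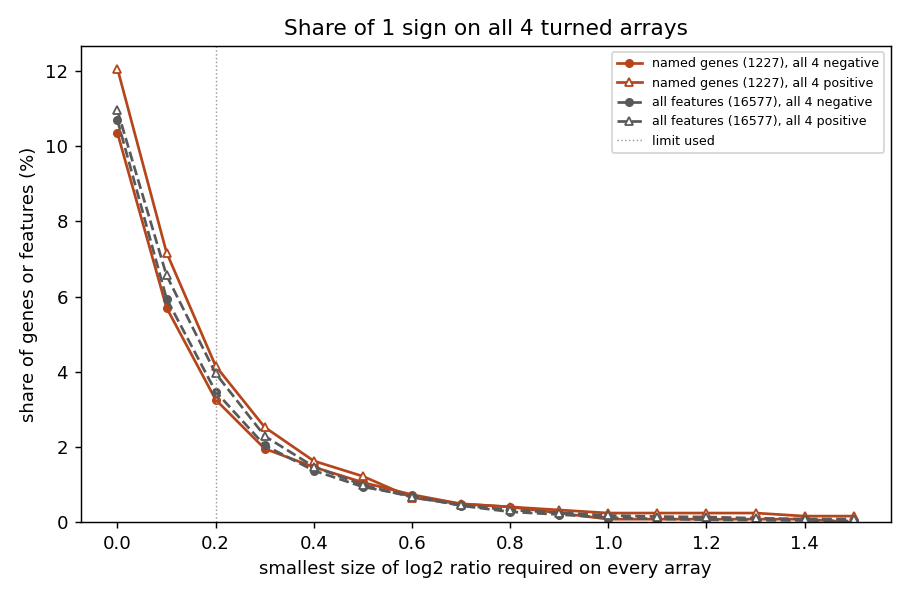
Share of named genes (red) and of all features (grey) with 4 turned ratios of 1 sign (y axis, %) against the smallest size required on every array (x axis, log2), before any gene was set aside by name. At 0.2 the negative share was 3.26% of named genes and 3.47% of all features, and at 0.5 it was 1.06% and 0.941%.

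On the positive side, 51 named genes (4.16%) had all 4 turned ratios at or above 0.2, against 3.96% of all features. Their median mean was 0.68, with 10 genes at or above 1. The highest mean was 2.97, larger in size than the lowest of the 34 genes (-1.65). As deposited, 35 named genes (2.85%) had all 4 ratios at or below -0.2 and 27 (2.2%) had all 4 at or above 0.2. Over all features those shares were 5.2% and 1.72%. The numbers of named genes of 1 sign were thus of the same order under both readings of the dyes.

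Large negative means did not by themselves place a gene in the set. Of 25 named genes with 4 values and a mean turned ratio at or below -1, 10 were among the 34 and 3 had been set aside by name. The other 12 had at least 1 array above the limit, and in 8 of them at least 1 array was positive.

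The empty cells of replicate 4 also limited the set. A further 457 named genes had 3 values, 420 of them for want of replicate 4. In 36 of the 457 (7.88%) all 3 values were at or below -0.2, and 32 of these lacked replicate 4. This share cannot be set against the 3.26% of genes with 4 values, because 3 values meet the limit more easily. The matching share over all features with 3 values was not computed. With 3 values asked for in place of 4, the set would hold 70 genes.

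The pathways around the 34 genes were thinly covered by named probes. None of the 18 flavonoid genes and none of the 27 genes of light signalling and HY5 partners in the lists used here was among the named genes. Of 32 genes of the touch, wound and rapid stress response, 3 were named and 2 had 4 values. AT1G66090 was the 1 among the 34, and the median of the 2 means was -0.58. The other, STZ, a zinc finger repressor gene of stress responses, had -0.67, -2.67, 0.91 and 0.15, negative on both arrays with the mutant in Cy3 and positive on both with it in Cy5.

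Of 38 cell wall growth genes, 3 had 4 values, and none was among the 34. Their median was -0.44. EXLA1, an expansin-like gene, came near with -0.02, -1.57, -1.46 and -0.95, held out by replicate 1 alone. EXLA2, its close relative, had -0.47, -0.89, -0.51 and 0.13, held out by replicate 4 alone.

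For the aliphatic glucosinolate pathway of BCAT4, 2 of 22 genes were named. UGT74B1, which glucosylates the thiohydroximate intermediate, had 0.92, -0.20, -0.71 and -1.15, with no common sign, unlike BCAT4. For the breakdown of branched-chain amino acids, 5 of 16 genes were named and 3 had 4 values, with a median of -0.059. Beside AT1G21400 these were IVD, the isovaleryl-CoA dehydrogenase gene, at -0.62, -0.69, 0.43 and 0.83, and MCCA, a subunit gene of methylcrotonyl-CoA carboxylase, at 0.18, -0.10, -0.29 and -0.03. GH3.17 was the only named gene of 12 in its family. These 3 lists were drawn up after the 34 genes were known.

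Markers of other tissue or of an earlier state gave no member. Of 15 root-enriched genes, 4 had 4 values, with 0 among the 34 and 0 with a mean below 0. Their means ran from 0.027 to 1.03, with a median of 0.10. The 34 are 2.77% of the named genes, so 0 among so few genes says little. Of 26 seed storage and late embryogenesis genes, 3 had 4 values, with 0 among the 34, means from -0.35 to 2.97 and a median of 0.42. Their part in the ratios of the 34 genes was not tested.

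By gene order on the chromosomes of the TAIR10.1 assembly, used here for neighbours alone, the closest pairs were APK1A with AT1G07650, with 7 protein-coding genes between them, and AT1G66090 with AT1G66180, with 9 between them. No 2 of the 34 genes were direct neighbours. Chromosome 1 held 15 of the 34 (44.1%), against 27.5% of the named genes with 4 values, and chromosome 5 held 4 (11.8%), against 23.7%.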

How the data were processed

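The only measurements used were log2 ratios that the authors deposited, 1 per probe and array. The submitters' processing notes name limma without saying what it did. The sources used here are silent on background correction, normalization, the filter behind empty cells, the direction of the ratio and the base of the logarithm (read as 2). Intensities were not used, so signal over background is unknown, and precision is limited by the number of arrays.

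Of 27648 probes, 2032 were paired with 1 gene, 644 with several and 24972 with none in the annotation supplied, which can be old. Symbols were updated by Entrez ID (2029 probes matched). Probes of a gene were averaged per array. Replicates 1 and 2 were multiplied by -1. The fit across features with at least 3 values used limma 3.58.1 in R 4.3.3 and was checked on simulated data, as was the selection. The sizes of the simulated shifts are not given here. These checks therefore give no power to find differences of the sizes reported above. The lack of features past the adjusted threshold cannot be read as a lack of differences. Genes, lists and alternatives were chosen with earlier results of these data known. Every member is named. All 4 values are printed for the 20 lowest means, genes at the limit and up to 2 per keyword group. They are also printed for up to 2 genes with the lowest means from each list, except the root-enriched and seed lists. STZ and the named members of the pathways of BCAT4 and AT1G21400 with 4 values were added after their values were seen. The promoter motif search was not run, since no promoter sequence was used here.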

Additional observations from a re-analysis of the deposited data

How the results depend on the processing

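Each array is itself a ratio of both genotypes, so the limma fit against 0 already compares them within arrays. All 4 arrays form 1 group, so no further pairing was used. The set of 34 genes became 63 at a limit of -0.1 and 14 at -0.4. Before genes were set aside by name, 5.70% of named genes and 5.95% of all features met -0.1. At -0.4 these shares were 1.47% and 1.38%. With any 1 array left out it held 65 to 68 genes, larger by construction since 3 values had to meet the limit, and asking for 3 or more values, an alternative chosen after seeing the data, gave 70. Centring each array on its median kept 30 of the 34, as did centring with scaling, and quantile normalization kept 31 of them in a set of 34. Asking every probe to meet the limit kept 34, as it must, since each gene rests on 1 probe. Leaving out genes named by an accession of 3 or more probes also had to keep 34, since 0 of them were so named. As deposited, 35 genes had 4 values at or below -0.2. Of these, 0 were among the 34, as must be, since the selection makes replicates 1 and 2 positive as deposited. In limma 0 features passed under each of the alternatives run. The number at an unadjusted p under 0.05 was 2122 with all arrays. It was 1577, 1316, 1659 and 2095 without replicates 1, 2, 3 and 4 in turn. Each of these fits had fewer arrays, so a lower number is not particular to replicate 2.

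As deposited, the mean changed sign for 26 of the 34 genes, those whose ratios were larger in size with the mutant in Cy3, and stayed negative for the other 8. The 26 values were 0.42 (AT1G76600), 0.16 (BCAT4), 0.012 (AT5G66650), 0.40 (AT1G32920), 0.18 (AT1G24530), 0.44 (AT3G59930), 0.44 (AT3G52800), 0.28 (AT3G56880), 0.66 (AT2G18690), 0.15 (AT1G61890), 0.17 (AT3G07350), 0.10 (AT1G15430), 0.075 (AT1G21400), 0.17 (AT4G18280), 0.11 (GH3.17), 0.047 (AT1G78810), 0.10 (AT1G17620), 0.12 (AT1G66180), 0.22 (AT1G66090), 0.20 (BRH1), 0.24 (APK1A), 0.14 (AT4G27350), 0.073 (AT2G22900), 0.097 (AT4G36530), 0.015 (AT3G09735) and 0.0081 (ATSIK). Each gene is negative with any array left out because the selection makes it so, which is no sign of stability.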
